A study of Mus musculus with 4 samples.

Results

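Atpif1 encodes ATPIF1, an inhibitor protein of the ATP synthase of mitochondria, and is described here as 1 gene of the 31053 counted, across the leukocytes of B16 melanomas. It was chosen by name, as the gene that the study targeted. B16 is a transplantable melanoma line of C57BL/6 mice, and the tumours grew for 12 days in the flank of male C57BL/6 mice labelled as ATPIF1 knockout (KO) or as wild type (WT). Tumour suspensions of each genotype were mixed, leukocytes were sorted by the surface protein CD45, and every pool was made into 1 RNA library that counts 5′ ends in droplets and 1 library of T cell receptors (TCR). The labels state 6 mice without saying whether that number is per genotype, and they describe neither the deleted part of the gene nor the cells in which it was deleted. The melanoma cells came from the injected line, not from the mice. With 1 pool per genotype there is no replicate, so no test between genotypes was possible, and every interval below covers counting error only.

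The ATP synthase of the inner mitochondrial membrane makes ATP from the proton gradient, and it can run backwards and consume ATP when the gradient collapses. ATPIF1 is a small protein of the mitochondrial matrix that binds the catalytic F1 part of the enzyme and blocks this reverse reaction. It is encoded in the nucleus, as are most subunits of the enzyme, and its amount is known to differ widely between tissues.

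The files count Atpif1 under ENSMUSG00000054428. Its RefSeq span on GRCm38 runs from 132530555 to 132535450 on the minus strand of chromosome 4, head to head with Dnajc8, a chaperone gene that begins at 132535559. The 108 bases between the 2 spans, chr4:132535451-132535558 of GRCm38.p6 (RefSeq), are printed on the Atpif1 strand because they hold the sequence just before the start of the gene, where the transcripts whose 5′ ends were counted begin. Capitals mark a match to the motif of NRF1 (GCGCA, any base, then GCGC), an activator of many nuclear genes of mitochondrial proteins.
Atpif1 promoter: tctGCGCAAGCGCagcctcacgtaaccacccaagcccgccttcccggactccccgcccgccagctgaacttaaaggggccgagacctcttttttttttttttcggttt
On either strand, this motif was in 5.19% of the promoter windows of 27025 genes (300 bases each). It was in the windows of 6 of the 15 nuclear ATP synthase subunit and assembly factor genes that had one in the table, namely Atp5c1, Atp5g2, Atp5g3, Atp5h, Atp5k and Atp5o. The E-box CACGTG occurred once in the 300-base Atpif1 window, outside the stretch printed, in 8.09% of all windows and in 4 of the 15. These matches describe letters and not binding.

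The libraries labelled KO and WT held 24385843 and 35152477 UMIs (unique molecular identifiers, counted transcript tags). Barcodes with at least 1000 UMIs, 500 genes and at most 10% mitochondrial UMIs numbered 3211 and 4370 and had medians of 4266 and 4315 UMIs. Gates on marker UMIs placed 2272 (70.8%) and 3261 (74.6%) of them in 14 types. All genes of each marker list were detected in the gate of that list. This is no check of the gates, since they were set on UMIs of these markers. Ptprc, the gene of CD45, had a UMI in 71.0% and 65.9% of the gated leukocytes. Among the gated melanoma cells that had passed the sort, Ptprc had a UMI in 9.09% and 7.84%. TCR beta contigs were found in 22.4% and 26.2% of the cells in the T gates and in 0 of 698 and 1 of 871 macrophages. The libraries shared 29 barcodes among the cells kept, where random barcodes would share 19.0.

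The targeted gene was detected in both libraries, and no lower in that labelled KO. Its level over the cells kept was 679 CPM (counts per 1000000 UMIs; 95% interval 668 to 692) in the library labelled KO and 576 CPM (567 to 585) in that labelled WT, and 68.0% and 57.6% of the cells had at least 1 UMI of it. Were the 5′ end of the transcript intact in the knockout, its tags would still be counted, so the level is no check of such a deletion. Whether the labels of the libraries were exchanged was not tested, and every direction between the libraries below follows the labels as given.

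Atpif1 levels spread widely over the leukocyte types, with conventional type 1 dendritic cells (cDC1) at the top in both libraries. At the bottom were the T cells other than regulatory ones and B cells, joined by neutrophils in the library labelled WT. In cDC1, the Xcr1+ Clec9a+ subset specialised in presenting antigen to CD8 T cells, Atpif1 stood at 1241 CPM (1194 to 1289; 194 cells) in the library labelled KO and 1008 CPM (951 to 1067; 104 cells) in that labelled WT. Macrophages, gated on the complement genes C1qa, C1qb and C1qc, followed at 836 CPM (811 to 861; 698 cells) and 805 CPM (787 to 825; 871 cells). CD8 T cells stood at 268 CPM (243 to 295; 397 cells) and 150 CPM (128 to 176; 249 cells). Among the 10 types with at least 20 cells in the library labelled KO, cDC1 stood 8.91-fold above the lowest, gamma-delta T cells at 139 CPM (69.6 to 249) on 11 UMIs, and among the 13 in that labelled WT they stood 6.70-fold above the lowest, CD8 T cells.

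**Figure D1:**
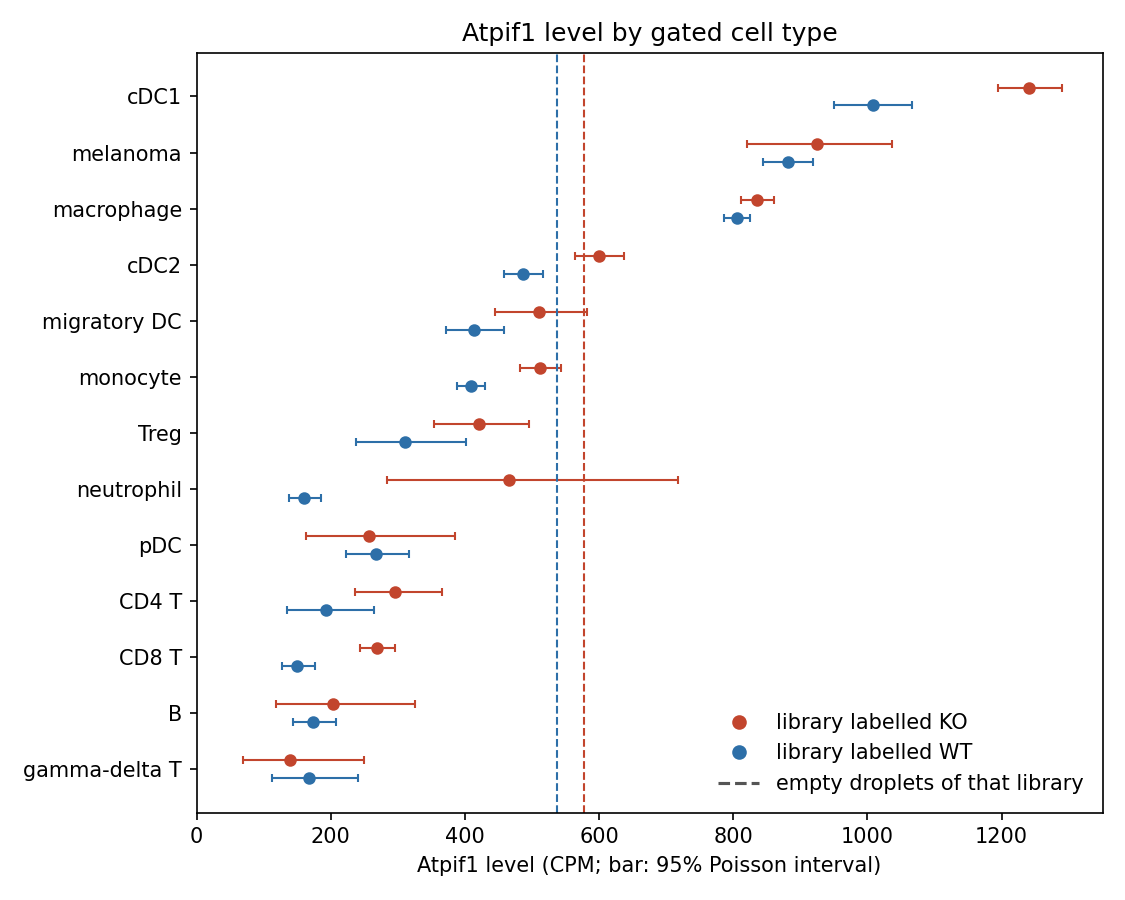
Atpif1 level in CPM (x axis) in each gated cell type (y axis), with 95% Poisson intervals as bars, the library labelled KO above that labelled WT. Dashed lines mark the level in the empty droplets of each library, and cDC1, melanoma cells and macrophages lie to the right of them in both.

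Between these ends came the other myeloid types. The cDC2, the dendritic cell subset that mainly presents antigen to CD4 T cells, had 600 CPM (564 to 638) in the library labelled KO and 487 CPM (459 to 517) in that labelled WT. Monocytes had 512 CPM (482 to 543) and 409 CPM (388 to 430). The marker lists did not part them cleanly from macrophages. Monocytes carried the macrophage list at 3399 CPM where labelled KO and 3520 CPM where labelled WT, against 3576 and 3136 CPM of their own list. Macrophages carried the macrophage list at 11987 and 15124 CPM. Migratory dendritic cells, which carry antigen to lymph nodes and were gated on genes such as Ccr7 and Fscn1, had 510 CPM (445 to 581) and 413 CPM (371 to 458). The 2 last types did not differ beyond counting error in either library. Melanoma cells, the tumour cells left after the sort, stood at 924 CPM (821 to 1037; 11 cells) and 881 CPM (845 to 919; 51 cells), between cDC1 and macrophages, with an interval that overlapped that of macrophages in the library labelled KO.

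Among lymphocytes, regulatory T cells (Treg), the Foxp3+ suppressive subset, had the highest level, at 420 CPM (354 to 496; 50 cells) in the library labelled KO and 311 CPM (237 to 401; 37 cells) in that labelled WT. Other CD4 T cells had 296 CPM (237 to 365) and 192 CPM (135 to 265). B cells had 204 CPM (119 to 326; 39 cells) and 173 CPM (143 to 207; 304 cells), and gamma-delta T cells had 139 CPM (69.6 to 249; 37 cells) and 168 CPM (112 to 241; 50 cells). From CD4 T cells downwards no neighbour in the order differed from the next beyond counting error in either library, while Treg stood above CD4 T cells beyond it in the library labelled KO (log2 ratio 0.51, 0.11 to 0.91). Plasmacytoid dendritic cells (pDC), the type I interferon producers, were at 256 CPM (163 to 385; 19 cells) and 267 CPM (223 to 316; 91 cells), the lowest of the dendritic cells. Neutrophils were at 465 CPM (284 to 718) in the library labelled KO, on 20 UMIs in 14 cells, and at 160 CPM (137 to 186; 448 cells) in that labelled WT. The NK gate held 7 and 12 cells with 3 and 5 UMIs of Atpif1, too few to place.

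Shares of positive cells also put cDC1 above macrophages and CD8 T cells once every cell was thinned to 1000 UMIs, although the intervals of cDC1 and macrophages overlapped in the library labelled WT. Atpif1 was then detected in 67.5% of cDC1 (60.5 to 74.1, exact binomial interval) in the library labelled KO and 58.7% (48.6 to 68.2) in that labelled WT, against 97.9% and 97.1% before thinning. Melanoma cells had 72.7% and 62.7% after thinning. Macrophages had 49.3% (45.5 to 53.1) and 50.9% (47.5 to 54.2) after thinning, against 92.3% and 92.3% before. CD8 T cells had 16.1% (12.6 to 20.1) and 8.43% (5.30 to 12.6), against 39.0% and 27.3% before. The thinned cDC1 held more than a single UMI in many cells, with 22.7% and 16.3% at 2 UMIs and 10.8% and 5.77% at 3 or more, while 3.02% and 0.803% of CD8 T cells had 2 and none had 3 or more. A count of 0 in 397 and 249 CD8 T cells allows a share of up to 0.756% and 1.20%.

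Empty droplets, barcodes of 10 to 100 UMIs that hold free RNA, carried Atpif1 at 577 CPM (551 to 604; 57860 barcodes) in the library labelled KO and 537 CPM (514 to 562; 61754 barcodes) in that labelled WT. The levels of cDC1, macrophages and melanoma cells were above these values, those of cDC2 in both libraries and of migratory dendritic cells and neutrophils labelled KO overlapped them, and those of T cells and B cells were below them. Free RNA, estimated from melanoma transcripts in each type against the empty droplets, made up 0 to 6.49% and 0.408 to 4.98% of the UMIs of the leukocyte types with at least 20 cells. The estimates correspond to at most 37.5 and 26.8 CPM of Atpif1, or 7.34% and 16.7% of a type's level, the 16.7% being that of neutrophils. Their upper limits reached 68.9 and 33.8 CPM, and 44.9% and 21.1% of a level, the 44.9% being that of gamma-delta T cells labelled KO, which held no melanoma UMI, as did B cells labelled KO. In cells thinned to 1000 UMIs these estimates would give Atpif1 in at most 3.68% and 2.64% of cells, below every share of positive cells given above. The ranges leave out types with fewer cells. In the 14 neutrophils labelled KO free RNA was estimated at 39.8% of the UMIs, on 6 melanoma UMIs. That is 230 of their 465 CPM of Atpif1, with an upper limit of 107% of the level. It would give Atpif1 in 20.5% of these cells after thinning, against 21.4% found. Estimated instead from the neutrophil genes S100a8 and S100a9, free RNA made up 26.3% of the UMIs of CD4 T cells labelled KO (62 UMIs of these genes; 151 of their 296 CPM of Atpif1), against 0.981% from melanoma transcripts. The latter rested on 1 UMI, with an upper limit of 5.47%. The cause of this difference was not tested.

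CD8 T cells carried transcripts of myeloid cells, and these moved with the Atpif1 level. The 12 genes of the macrophage and cDC1 lists summed to 291 CPM in CD8 T cells labelled KO and 499 CPM in those labelled WT, and none of their UMIs was found in 281 and 154 of these cells (70.8% and 61.8%). Cells with such a UMI had 329 CPM of Atpif1 (281 to 382) against 238 CPM (209 to 270) in cells without one where labelled KO, with a log2 ratio of 0.47 (0.17 to 0.75). Where labelled WT, the same groups had 211 CPM (174 to 254) and 84.8 CPM (61.4 to 114), which gives 1.32 (0.80 to 1.86). WT neutrophils had 221 and 96.3 CPM (log2 ratio 1.20, 0.72 to 1.70), and WT CD4 T cells had 270 and 101 CPM (1.41, 0.29 to 2.68). The ratio was within counting error in CD4 T cells labelled KO (0.46, -0.20 to 1.11) and in B cells labelled WT (0.42, -0.16 to 1.03), and B cells labelled KO had 201 CPM with and 206 CPM without such a UMI. Cells with these UMIs were also deeper, with medians of 3180 against 2662 UMIs in CD8 T cells labelled KO and 3977 against 3049 in those labelled WT. The part of the myeloid transcripts and of depth in the Atpif1 level was not tested. Against CD8 T cells without these UMIs, cDC1 stood 2.38 (2.19 to 2.58) and 3.57 (3.13 to 4.04) higher on the log2 scale, and macrophages 1.81 (1.63 to 2.00) and 3.25 (2.82 to 3.71).

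Cells with more UMIs had a higher Atpif1 fraction in several types, although CPM is a ratio to the cell's own total. CD8 T cells labelled KO had 110 CPM (71.5 to 161) in the shallowest tercile of cells, 152 CPM in the middle tercile and 357 CPM (320 to 398) in the deepest, whose median was 5576 UMIs. Those labelled WT had 58.0, 54.1 and 221 CPM in the same order. The deepest over the shallowest tercile gave log2 ratios of 1.71 (1.13 to 2.34) and 1.93 (1.01 to 3.03). Cycling cells made up 31.1% and 10.8% of the deepest terciles and 4.51% and 6.02% of the shallowest. In macrophages the same ratio was 0.27 (0.14 to 0.41) and 0.14 (0.04 to 0.25), and in cDC1 it was 0.28 and 0.48. Of 15 such ratios over the types, 14 were above 0, 9 of them beyond counting error, and none was lower beyond it. Depth also differed between types, with medians of 10281 and 11225 UMIs in cDC1 and of 2801 and 3322 in CD8 T cells.

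**Figure D2:**
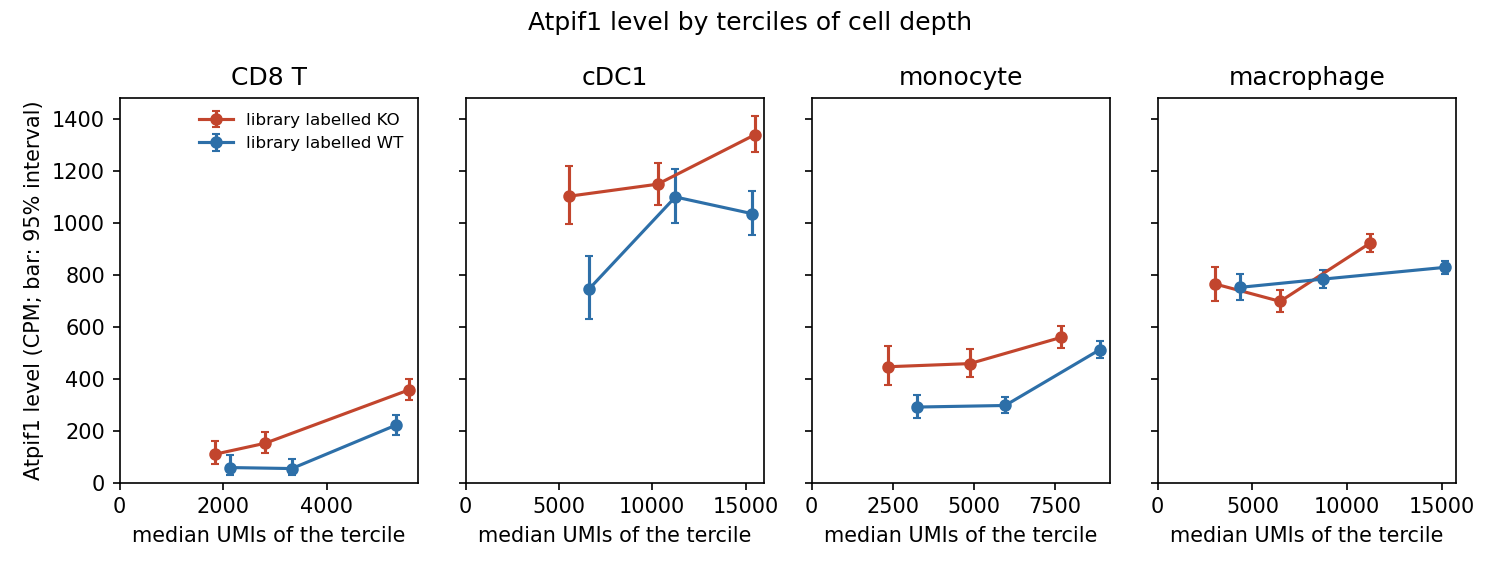
Atpif1 level in CPM (y axis, 95% intervals as bars) in terciles of the cells of 4 types, placed at the median UMIs of each tercile (x axis). CD8 T cells reach 357 and 221 CPM in the deepest terciles of the libraries labelled KO and WT, below every tercile of the cDC1 and macrophages.

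Only cells of 2000 to 6000 UMIs were then compared, a range chosen after the data were seen. Within it depth still differed between types, with medians of 3801, 4068 and 4314 UMIs in cDC1, macrophages and monocytes labelled KO against 2978 in CD8 T cells, and of 4035, 4195 and 4416 against 3417 where labelled WT. In them cDC1 had 989 CPM (30 cells) and CD8 T cells 212 CPM (249 cells) where labelled KO, with a log2 ratio of 2.23 (1.87 to 2.57), against 2.21 over all cells. Where labelled WT they had 683 CPM (14 cells) and 72.3 CPM (180 cells), a log2 ratio of 3.24 (2.57 to 3.90), against 2.74 over all cells. Macrophages were 1.70 (1.46 to 1.95) and 3.46 (3.03 to 3.92) above CD8 T cells at this depth, and monocytes 1.10 and 2.08. These types thus stood above CD8 T cells within this range too, whereas neutrophils labelled WT did not beyond counting error (0.50, -0.12 to 1.11). For B cells the ratio to CD8 T cells was within counting error in both libraries, and CD4 T cells and Treg were above CD8 T cells beyond it where labelled WT (1.12 and 1.48) but not where labelled KO (-0.26 and 0.19).

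Cycling cells, those with a UMI of the proliferation genes Mki67 or Top2a, were compared with resting cells of the same type. Macrophages were the only gated type higher in cycling cells beyond counting error in both libraries, and the largest ratio was that of CD8 T cells labelled KO. Cycling CD8 T cells labelled KO had 436 CPM (376 to 503; 55 cells) against 202 CPM (176 to 230; 342 cells) in resting ones, a log2 ratio of 1.11 (0.83 to 1.40). Those labelled WT had 195 CPM (117 to 304; 16 cells) against 146 CPM (123 to 172; 233 cells), a log2 ratio of 0.42 (-0.36 to 1.12) within counting error, and the difference between the 2 ratios was not tested. The medians were 6772 UMIs in cycling and 2660 in resting CD8 T cells labelled KO. Among cells of matched depth the ratio there was 0.73, and among cells without myeloid marker UMIs it was 1.27 (0.89 to 1.64).

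Cycling macrophages had 1089 CPM (1028 to 1152; 91 cells) against 766 CPM (739 to 793; 607 cells) in resting ones where labelled KO, with a log2 ratio of 0.51 (0.41 to 0.60). Those labelled WT had 1010 CPM (971 to 1050; 177 cells) against 722 CPM (701 to 744; 694 cells), a log2 ratio of 0.48 (0.41 to 0.55). The cycling macrophages were also deeper, with medians of 10254 against 5967 UMIs where labelled KO and 12913 against 8134 where labelled WT. Cycling cDC1 were 0.27 (0.15 to 0.38) and 0.12 (-0.06 to 0.29) above resting cDC1. In cDC2 the ratio was 0.18 (-0.05 to 0.40) and 0.66 (0.45 to 0.87), and in monocytes it was 0.08 and 0.66 (0.37 to 0.93). For monocytes labelled WT the ratio turned to -0.23 in cells of matched depth, and for cDC1 labelled KO it turned to -0.31 when cells were thinned before they were called cycling. The opposite direction was seen in migratory dendritic cells labelled WT, with 283 CPM (16 cells) in cycling against 431 CPM (113 cells) in resting ones (log2 ratio -0.61, -1.20 to -0.06), and in melanoma cells labelled WT (-0.21, -0.37 to -0.04; 41 and 10 cells). Over the 15 comparisons with at least 10 cells in each state, 6 were higher and 2 lower in cycling cells beyond counting error, and 7 were within it.

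**Figure D3:**
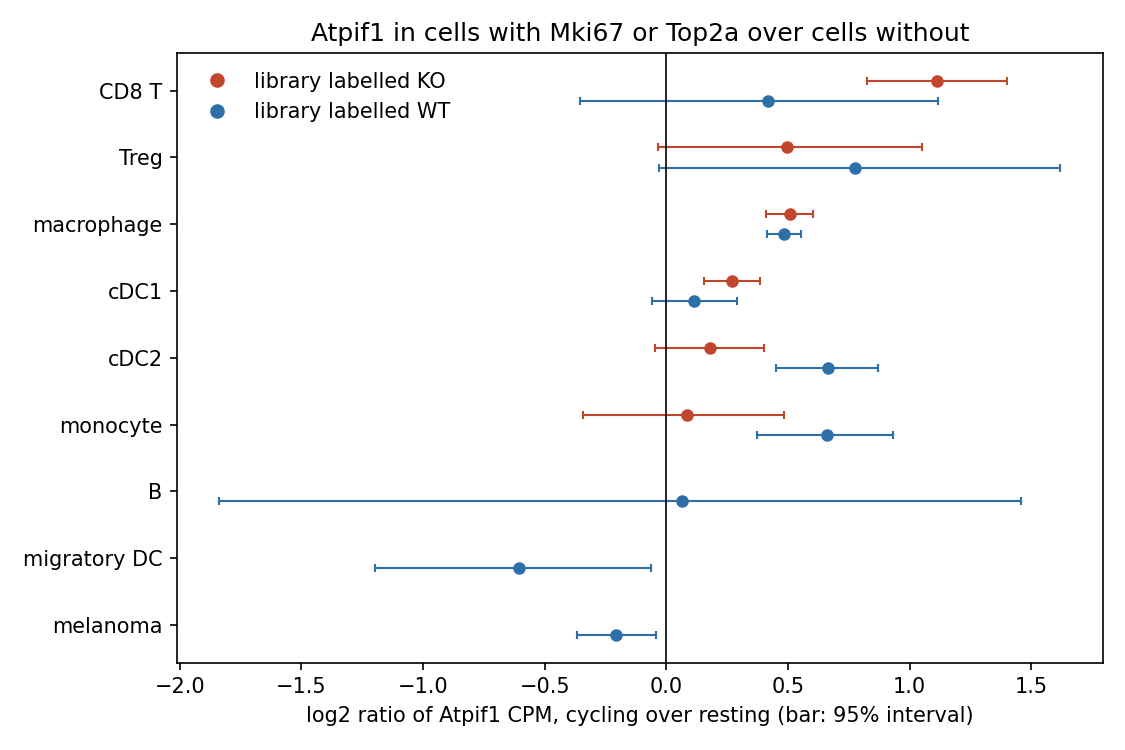
Log2 ratio of the Atpif1 level in cycling over resting cells (x axis, 95% intervals as bars) by gated type (y axis), the library labelled KO above that labelled WT where both had at least 10 cells in each state. Macrophages sit at 0.51 and 0.48, and migratory dendritic cells and melanoma cells of the library labelled WT lie below 0.

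Between the libraries, the level was higher in that labelled KO in most groups of cells, with the largest difference in CD8 T cells, among gated types of at least 20 cells in both libraries, and one within counting error in macrophages as a whole. As log2 of KO-labelled over WT-labelled CPM, the ratio was 0.84 (0.57 to 1.11) in CD8 T cells. It was 0.30 (0.20 to 0.40) in cDC1, 0.30 (0.18 to 0.43) in cDC2, 0.30 (0.06 to 0.55) in migratory dendritic cells and 0.32 (0.21 to 0.44) in monocytes. In macrophages it was 0.05 (-0.002 to 0.11), and in gamma-delta T cells -0.27 (-1.42 to 0.78). Resting and cycling macrophages taken apart had 0.09 (0.02 to 0.15) and 0.11 (0.008 to 0.21), both small and beyond counting error. CD4 T cells had 0.62 (0.05 to 1.22), which turned to -0.26 when the gates asked for 1 more UMI and was 1.38 (0.34 to 2.58) in cells without myeloid marker UMIs, and Treg had 0.43 (-0.01 to 0.90). Over 13 groups, which are 10 gated types and the 3 pools of cells outside them, 12 ratios were above 0 and 8 of these were beyond counting error.

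The median log2 ratio over the 7598 genes measured in CD8 T cells was 0.18, and relative to it Atpif1 was 0.65 higher. At least 1.5-fold higher in the library labelled KO were 22.7% of all genes in these cells and 5 of the 16 nuclear ATP synthase subunit genes measured, whose median was 0.41 and which ranged between 0.02 and 0.87. In cDC1 0 of the 16 passed this size, against 11.5% of all genes, and their median was 0.19. Over all resting CD8 T cells the Atpif1 ratio was 0.47 (0.15 to 0.78), at 202 and 146 CPM, smaller than over resting and cycling ones together. Among CD8 T cells without myeloid marker UMIs the Atpif1 ratio was 1.49 (1.02 to 1.99), at 238 and 84.8 CPM, and in resting ones of these it was 1.04 (0.52 to 1.58). Cells of 2000 to 6000 UMIs without these UMIs gave 1.08 (0.52 to 1.67), at 174 and 82.4 CPM. In all cells of 2000 to 6000 UMIs the CD8 T cell ratio was 1.55 (1.07 to 2.05). The macrophage ratio turned to -0.21 (-0.36 to -0.05) at this depth, at 689 CPM (640 to 741) in the library labelled KO and 795 CPM (735 to 858) in that labelled WT. Since the genotype, the pool and the library are the same split, they cannot be told apart.

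**Figure D4:**
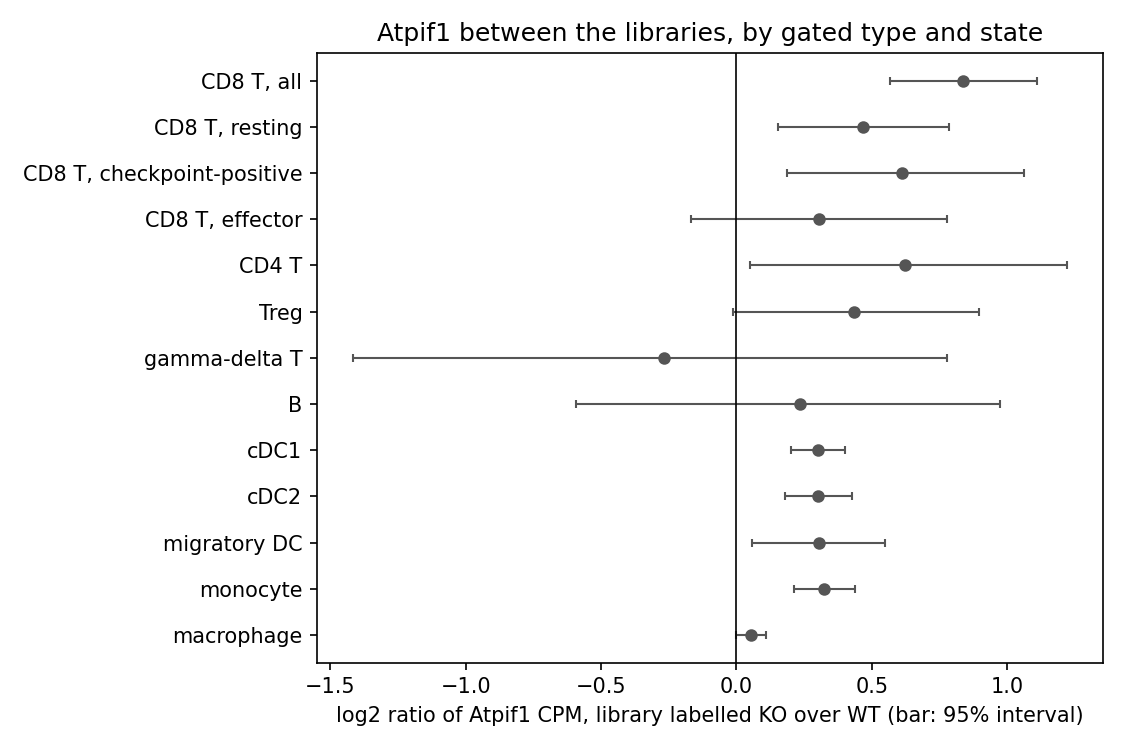
Log2 ratio of Atpif1 CPM between the libraries, labelled KO over labelled WT (x axis, 95% intervals as bars) by gated type and CD8 T cell state (y axis). CD8 T cells as a whole sit at 0.84 and macrophages at 0.05, and the interval of the effector state crosses 0.

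Within CD8 T cells the level followed the state. Checkpoint-positive cells, with a UMI of the inhibitory receptor genes Pdcd1, Lag3, Havcr2 or Tigit, had 348 CPM (310 to 390; 160 cells) in the library labelled KO and 228 CPM (171 to 298; 37 cells) in that labelled WT. Effector cells, which expressed the cytotoxicity and chemokine genes Nkg7, Ccl5, Gzmb or Gzmk without a checkpoint UMI, had 160 CPM (126 to 199; 171 cells) and 129 CPM (102 to 162; 143 cells). Checkpoint-positive over effector cells gave a log2 ratio of 1.12 (0.76 to 1.501) in the library labelled KO and 0.82 (0.28 to 1.34) in that labelled WT. In resting cells alone it was 0.87 (0.43 to 1.33) and 0.59 (-0.03 to 1.18). Checkpoint-positive cells were also deeper, with medians of 4084 and 4508 UMIs against 2633 and 3408 in effector cells, and the part of depth in this difference was not tested.

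Both states took different shares of the CD8 T cells in the libraries. Checkpoint-positive cells were 40.3% of them in the library labelled KO and 14.9% in that labelled WT, and effector cells 43.1% and 57.4%. Of the checkpoint-positive cells 28.1% and 13.5% were cycling. Within these states the difference between the libraries was smaller, with log2 ratios of 0.61 (0.19 to 1.06) in checkpoint-positive and 0.30 (-0.17 to 0.78) in effector cells. In resting cells of these states the ratios were 0.37 and 0.09, both within counting error. These states include cells with myeloid marker UMIs.

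Cells with a TCR beta contig, taken whatever their RNA gate, had 400 CPM (369 to 433; 245 cells) in the library labelled KO and 231 CPM (202 to 263; 210 cells) in that labelled WT, with a log2 ratio of 0.79 (0.57 to 1.02). Of these cells 216 of 245 and 186 of 210 were in the T gates. The rest lay outside those gates and were kept in, so these levels are not of gated T cells alone. Cycling cells among them had 455 CPM (59 cells) against 362 CPM (186 cells) in resting ones where labelled KO, a log2 ratio of 0.33 (0.09 to 0.56), and 307 CPM (24 cells) against 217 CPM (186 cells) where labelled WT, a ratio of 0.50 (0.003 to 0.96). Where labelled KO, members of clones of at least 2 cells had 423 CPM (107 cells) and clones of 1 cell 380 CPM (138 cells), a log2 ratio of 0.15 (-0.08 to 0.39). In that labelled WT they had 196 CPM (19 cells) and 234 CPM (191 cells), a ratio of -0.26 (-1.09 to 0.47). The level thus did not differ between clones seen in at least 2 cells and clones seen in 1 beyond counting error in either library. Beta contigs were found in only 22.4% and 26.2% of the cells in the T gates, so a clone seen in 1 cell may have had more. Clones of at least 2 cells numbered 15 and 9, the largest with 26 and 3 cells.

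Macrophages were also split by Arg1, which encodes the arginine-degrading enzyme arginase 1, and Mmp12, a macrophage metalloelastase gene. Cells with at least 3 UMIs of either had 807 CPM (769 to 846; 251 cells) against 856 CPM (823 to 889; 447 cells) in the rest where labelled KO, with a log2 ratio of -0.08 (-0.17 to 0.004). In that labelled WT they had 652 CPM (622 to 684; 252 cells) against 873 CPM (850 to 897; 619 cells), a ratio of -0.42 (-0.50 to -0.34). Among resting cells the ratios were -0.01 (-0.11 to 0.09) and -0.37 (-0.46 to -0.27), and the difference between the libraries was not tested. The KO-labelled over WT-labelled log2 ratio was 0.31 (0.21 to 0.40) in the cells with Arg1 or Mmp12 and -0.03 (-0.10 to 0.04) in the others.

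Atpif1 differed more between cDC1 or macrophages and CD8 T cells than the genes of the enzyme it binds. From CD8 T cells to cDC1, Atpif1 was higher by a log2 ratio of 2.21 (2.06 to 2.36) in the library labelled KO and 2.74 (2.50 to 2.99) in that labelled WT, where 5.71% and 2.67% of the genes measured stood at or above it. The 16 nuclear ATP synthase subunit genes measured had medians of 0.25 and 0.65, and their highest members stood at 0.83 and 1.17, below Atpif1. At least 1.5-fold higher in cDC1 were 2 and 9 of the 16, against 27.9% and 35.6% of all genes, and 0 were lower in either library, against 23.3% and 19.9%. From CD8 T cells to macrophages Atpif1 was higher by 1.64 (1.49 to 1.79) and 2.42 (2.19 to 2.66), with subunit medians of 0.32 and 0.58. There 0 and 7 of the 16 were at least 1.5-fold higher, against 32.9% and 44.7% of all genes, and 0 were lower in either library, against 24.3% and 19.2%. The median over all genes was 0.04 and 0.26 for cDC1 and 0.10 and 0.43 for macrophages. Over the leukocyte types with at least 20 cells, the highest type stood 8.91-fold and 6.70-fold above the lowest for Atpif1, and at most 3.35-fold and 5.76-fold above it for a subunit gene. With melanoma cells included, which were numerous enough in the library labelled WT, 6 of the 16 subunit genes spread at least as widely as Atpif1, up to 14.6-fold for Atp5g3.

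**Figure D5:**
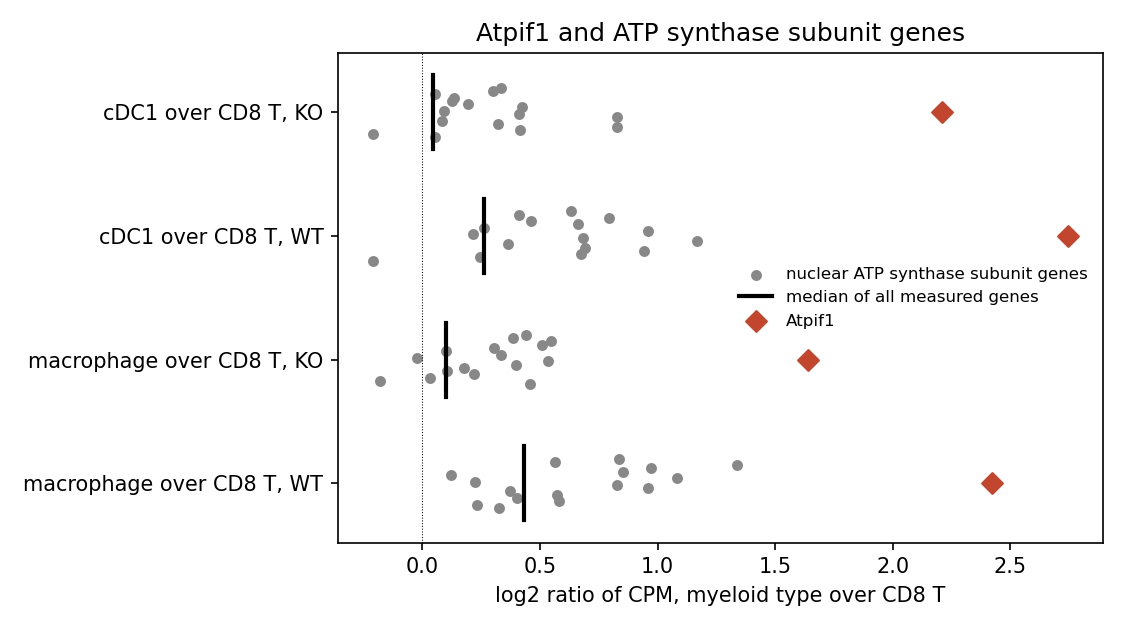
Log2 ratio of the level in cDC1 or macrophages over CD8 T cells (x axis) for Atpif1 (diamond), the 16 nuclear ATP synthase subunit genes (grey points) and the median of all genes measured (black line), by comparison and library (y axis). Atpif1 lies between 1.64 and 2.74, to the right of every subunit gene.

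The subunits encoded in mitochondrial DNA ran the other way. Of mt-Atp6 and mt-Atp8, which encode parts of the membrane-bound Fo portion and overlap each other, so that tags could be assigned to either, both were at least 1.5-fold lower in cDC1 than in CD8 T cells in each library (medians -0.84 and -0.95), against 23.3% and 19.9% of all genes. In macrophages over CD8 T cells their medians were -0.45 and -0.56. There 0 and 1 of the 2 were at least 1.5-fold lower, against 24.3% and 19.2% of all genes. The assembly factor genes Atpaf1, Atpaf2 and Tmem70 had a median of -0.14 in cDC1 over CD8 T cells where labelled KO, 1 of the 3 being at least 1.5-fold higher, against 27.9% of all genes. In the library labelled WT 1 was higher and 1 lower of 2 measured, against 35.6% and 19.9% of all genes. The lower was Atpaf2, on 12 against 17 UMIs (log2 ratio -0.66, -1.85 to 0.50). Opa1, Immt and Mcu, genes of inner membrane fusion, cristae organisation and mitochondrial calcium uptake, had medians of 0.39 and 1.10 in macrophages over CD8 T cells, where 1 and 3 of the 3 were at least 1.5-fold higher, against 32.9% and 44.7% of all genes. In cDC1 over CD8 T cells their median was -0.40 where labelled KO, with 0 higher and 1 lower, against 27.9% and 23.3% of all genes. The lower was Mcu, on 9 against 14 UMIs (log2 ratio -1.10, -2.49 to 0.21). Where labelled WT the median was 1.046, with both of the 2 measured higher, against 35.6% of all genes. Opa1 and Mcu had only 7 and 6 UMIs in CD8 T cells labelled WT.

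The same subunit genes were compared between cycling and resting cells. Where labelled KO, 6 of 16 were at least 1.5-fold higher in cycling CD8 T cells, against 29.5% of all genes, with a median of 0.54 against 0.22 over all genes and 1.11 for Atpif1. In macrophages 0 of 16 in either library reached that size, against 13.6% and 13.7% of all genes, and the medians were 0.13 and 0.20. Atpif1, at 0.51 and 0.48, did not reach it either, and the highest subunit gene, Atp5g3, was close to it at 0.49 and 0.46.

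Over 23 points, the 10 types of the library labelled KO and the 13 of that labelled WT, the level of Atpif1 on the log2(CPM + 10) scale was most like that of Sdhd (Pearson r 0.90), a membrane anchor subunit of respiratory complex II, Vdac2 (0.90), a channel of the outer mitochondrial membrane, and the proteasome subunit gene Psma5 (0.90). The next of the 10 most similar among 2415 genes were Gusb, the lysosomal beta-glucuronidase, Pomp, a proteasome assembly factor, the ubiquitin-conjugating enzyme gene Ube2n, Swi5, the complex I subunit gene Ndufc2, and the proteasome subunit genes Psma7 and Psmb5, with r between 0.88 and 0.86 except for Gusb at 0.89. The median r over all 2540 genes was 0.15. The 16 nuclear ATP synthase subunit genes had a median of 0.63, from 0.27 for Atp5a1, the alpha subunit of F1, to 0.83 for Atp5f1, a stalk subunit. The mitochondrial genes mt-Atp6 and mt-Atp8 were at -0.48 and -0.50. These values are descriptions, since points share their library, depth differs between types and types are related.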

How the data were processed

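RNA libraries of CD45-sorted cells of 1 KO and 1 WT pool were analysed, with their TCR libraries. The deposited matrices hold raw UMI counts per gene and barcode, made by the authors with Cell Ranger, whose version was 3.1.0 per the file headers. The submitters' processing notes name the build mm10 and also Seurat 3.2.0 and R 3.6.1. From the deposited TCR contigs and their UMI counts, only the presence of a beta chain and its clone were used. Cells were filtered as stated in the report and gated on UMIs of marker genes. T cells needed at least 2 T cell genes with a Cd3 gene among them, and other types at least 2 of their genes, with further conditions for each. Cells that passed the gates of more than 1 lineage were left out of the gated types, which was the treatment of doublets. The monocyte and cDC2 gates did not count as a lineage here. A lymphocyte or neutrophil that also passed either of these gates therefore stayed in its type. One further CD8 T cell state is not reported here. Gate thresholds were set with the data in view.

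UMIs were summed per type and library and divided by that sum over all genes (CPM), with Poisson intervals that are exact. Log2 ratios have exact conditional binomial intervals and shares exact Clopper-Pearson intervals, at the 95% level. A ratio was called beyond counting error where its interval excluded 0. Contrasts over all genes used genes with at least 20 UMIs in both sides together and a size of 1.5-fold, with no test. Atp5o has more than 1 identifier in the files and was left out of the subunit list, so 16 of 17 were measured. Named genes were Atpif1, the listed ATP synthase and mitochondrial genes and the 10 genes most correlated with Atpif1 with a mean of at least 50 CPM, without gene models, receptor segments and ribosomal protein genes. Promoter sequences are from RefSeq. The gene, the lists and the alternatives were chosen with earlier results of these data known. The ratio was tested on simulated counts. Python 3.11.15, numpy 2.4.6, scipy 1.17.1 and pandas 2.3.3 were used.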

Additional observations from a re-analysis of the deposited data

How the results depend on the processing

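No paired analysis was possible because each genotype had 1 pooled RNA library. Alternatives changed the cell filters, gates, doublet removal, weighting, totals, free RNA, the cycling call and depth, and those on depth of cells and on myeloid marker UMIs were chosen after the data were seen. Of 185 alternative values of the levels by type 144 stayed within the counting interval of the reported value, as did 115 of 161 for shares, 24 of 40 for types over CD8 T cells, 136 of 151 for cycling over resting and 92 of 103 between the libraries. The log2 ratio of cDC1 over CD8 T cells in the library labelled KO was 2.05 with at least 2000 UMIs and 800 genes, 2.59 as a mean over cells, 1.86 without mitochondrial and ribosomal protein genes in the total and 2.38 against CD8 T cells without myeloid marker UMIs. In that labelled WT it was 3.30 as a mean over cells, 2.35 without those genes, 3.24 in cells of 2000 to 6000 UMIs and 3.57 without myeloid marker UMIs. For macrophages over CD8 T cells labelled KO the same 4 settings gave 1.48, 2.02, 1.22 and 1.81, and for those labelled WT 3.01 as a mean over cells, 1.92, 3.46 and 3.25. Cycling over resting was 0.73 at matched depth in CD8 T cells labelled KO. In macrophages labelled KO it was 0.62 with 2 UMIs of the cycling genes and 0.36 at matched depth, and in those labelled WT 0.58 as a mean over cells, 0.57 with Mki67 only, 0.59 with 2 UMIs and 0.60 thinned. The library ratio in CD8 T cells was 1.49 without myeloid marker UMIs, and in cells of 2000 to 6000 UMIs it was 1.55 in CD8 T cells, 0.53 in cDC1 and -0.21 in macrophages. Empty droplets of 20 to 50 UMIs had 622 CPM in the library labelled KO. Of 12 signs that changed, 9 were of ratios within counting error as reported, that of macrophages among them. Those beyond it turned in cDC1 labelled KO (cycling over resting, -0.31 when thinned), in monocytes labelled WT (-0.23 at matched depth) and in CD4 T cells (library ratio, -0.26 with gates 1 UMI higher). The cause of these shifts was not tested. Some settings left too few cycling cells of a type to give its ratio. Depth limits types with few cells most, and NK cells could not be placed.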

Other observations

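Cells outside the gates also carried Atpif1. Those that no gate took had 671 CPM (634 to 710; 480 cells) in the library labelled KO and 429 CPM (404 to 456; 662 cells) in that labelled WT, although their medians were 2128 and 2058 UMIs. T cells that no T subset gate took had 255 CPM (226 to 286; 381 cells) and 140 CPM (118 to 166; 318 cells). They include cells with Cd8 UMIs together with UMIs of Cd4, Foxp3 or gamma-delta T cell genes. Cells that passed the gates of more than 1 lineage had 623 CPM (78 cells) and 595 CPM (129 cells).

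Genes that ran opposite to Atpif1 over the 23 points, named after their values were seen, were Ypel3 (Pearson r -0.93; 19.9 to 347 CPM over the points), Nufip2 (-0.90), Mepce (-0.89), the RNA helicase gene Ddx5 (-0.87; 355 to 1256 CPM) and Vps37b (-0.87; 13.2 to 456 CPM).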
